A study of Homo sapiens with 8 samples.

Results

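The 32 genes described here code for the enzymes of glycolysis and for proteins whose genes are known to respond to low oxygen, and they were taken by symbol from a table of 58735 genes. They were grouped by role into 17 glycolytic enzymes, 3 kinases that regulate glycolysis, 7 hypoxia-response genes that code for no enzyme, and 5 hypoxia-induced enzymes outside glycolysis. Messenger RNA was measured in Caco-2 cells, a human colorectal carcinoma line that is widely used as a model of the intestinal epithelium. The cells had been treated with M2-exo (3 libraries, called M2-exo treated) or with phosphate-buffered saline (PBS) only (3 libraries, called untreated). M2-exo are exosomes, small vesicles that cells release, here from THP-1, a monocytic leukaemia line that can be turned into macrophage-like cells. M2 is the usual name for alternatively activated macrophages and M0 for unpolarised ones. The exosomes themselves were profiled for small RNA in 1 M2-exo and 1 M0-exo library. The labels call both lines wild type and give stem cells as their cell type. The sources used here do not give the dose, the length of treatment, the oxygen level or whether replicates are separate cultures. The p-values therefore cover only the variation among these libraries, part or all of which may be technical.

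Glycolysis splits glucose into pyruvate, with a small yield of ATP, and lactate dehydrogenase then turns pyruvate into lactate where cells do not pass it to the mitochondria. Many tumour cells run this route at a high rate even with oxygen present. When oxygen is scarce, the hypoxia-inducible factors HIF-1α and HIF-2α escape degradation, enter the nucleus and switch on genes through a DNA element whose core letters are ACGTG or GCGTG. Their targets include most glycolytic enzymes as well as genes with quite different tasks, among them VEGFA in blood vessel growth and BNIP3 in the removal of mitochondria. Glycolysis and hypoxia genes therefore often move together when HIF is active, and comparing the enzymes with the hypoxia genes that are no enzymes asks whether the glycolytic pathway moved with or apart from the wider hypoxia programme.

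The core letters were searched in RefSeq promoter windows of GRCh38.p14, each from 250 bases before to 50 bases after an annotated gene start, on both strands. Windows were found for 29 of the 32 genes, leaving BNIP3L, NDRG1 and VEGFA without one. At least 1 window held ACGTG or GCGTG in 26 of the 29 genes (89.7%), against 52.4% of all 27305 genes in the table. ACGTG itself was found in 18 of 29 (62.1%), against 24.9% of all. The windows of these genes were richer in G and C, with a median of 68.0% against 58.7% over all windows, and there were more of them per gene, 1.93 against 1.29. Counted by window, the share with either motif was 66.1%, against 48.4% of all windows. The sequences of 3 windows are shown because their genes carry the contrasts described further on. For each gene the window with the most matches was taken, and the other LDHA window had 1. GAPDH, also higher in every treated library, had 2 matches in its window and is not shown. The genes shown were picked by their expression, and whether matches go with expression was not tested. LDHA is a glycolytic enzyme gene with 2 of its 3 treated values above all untreated ones, BNIP3 is a hypoxia gene that was higher in every treated library, and ANKRD37 is a hypoxia gene that was high in 1 treated library alone. Capitals mark each match of ACGTG or GCGTG or of their reverse complements, and CACGTG holds a match on each strand.
LDHA, chr11:18394313-18394612, plus strand, 6 matches: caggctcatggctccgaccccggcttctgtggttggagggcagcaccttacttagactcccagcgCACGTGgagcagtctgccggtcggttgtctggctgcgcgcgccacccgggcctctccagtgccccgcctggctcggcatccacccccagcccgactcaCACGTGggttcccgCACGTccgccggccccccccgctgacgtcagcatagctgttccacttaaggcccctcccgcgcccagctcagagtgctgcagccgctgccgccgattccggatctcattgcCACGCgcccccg
BNIP3, chr10:131981874-131982173, minus strand, 6 matches: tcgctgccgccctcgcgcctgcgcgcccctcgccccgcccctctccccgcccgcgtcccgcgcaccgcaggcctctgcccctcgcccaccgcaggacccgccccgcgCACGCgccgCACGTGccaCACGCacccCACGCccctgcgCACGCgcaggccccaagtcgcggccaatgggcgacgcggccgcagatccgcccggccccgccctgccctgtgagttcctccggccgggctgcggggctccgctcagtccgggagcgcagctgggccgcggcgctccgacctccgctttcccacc
ANKRD37, chr4:185396591-185396890, plus strand, 3 matches: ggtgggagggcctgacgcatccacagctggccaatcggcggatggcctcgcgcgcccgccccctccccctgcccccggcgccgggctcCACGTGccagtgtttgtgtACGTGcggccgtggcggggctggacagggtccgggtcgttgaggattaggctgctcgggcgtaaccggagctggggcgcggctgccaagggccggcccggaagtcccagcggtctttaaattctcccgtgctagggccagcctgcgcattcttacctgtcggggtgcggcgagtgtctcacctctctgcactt
A match is a string of letters and was not measured as a bound site. Neither motif was in the windows of PGAM1, P4HA2 and EGLN3.

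Library totals were 17408745 to 18184325 counts in treated and 15608937 to 18324599 in untreated cells. Untreated 1 stood apart from the other libraries. It had the smallest total, its score on the first principal component of all genes was -56.0 where the other 5 lay between -13.4 and 43.2, and genes on the mitochondrial chromosome took 4.16% of its counts against 7.01% to 8.11% in the others. Of 12 intestinal epithelial markers, 8 were expressed above the filter on low counts, with a summed level of 8393, 10902 and 10338 CPM (counts scaled to library size by TMM) in treated and 9276, 9345 and 11839.6 in untreated libraries. CDX1, KRT20, LGALS4 and GPA33 were at or near 0 in all 6. Of 15 macrophage markers, CD68, TYROBP and C1QA were at 0 in all 6 libraries, while CD14, the highest of the list, had 6.42, 6.43 and 7.19 CPM in treated and 5.97, 8.84 and 7.15 CPM in untreated libraries, and CSF1R, LYZ, AIF1, MSR1, FCER1G and LAPTM5 also had counts in all 6. The 15 macrophage markers summed to 21.8, 14.8 and 17.3 CPM in treated and 18.3, 23.3 and 18.3 CPM in untreated libraries. Of 8 fibroblast markers 5 were tested, with a median log2 fold change of -0.03, from COL1A1 at -0.11 to PDGFRA at 0.37 among genes with a mean of at least 5 CPM. By the same rule CD14 was at -0.13 among the macrophage markers, and VIL1 at -0.15 and CDX2 at 0.27 among the epithelial ones. In bulk samples such as these, fewer cells of a type and less RNA per cell cannot be told apart.

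No gene of the 32 passed the test. Counts were compared with edgeR's quasi-likelihood test over 15084 genes, with Benjamini-Hochberg adjustment and a threshold of 0.05. It called 0 of the 31 genes tested, beside 0% of all genes tested, and each had an adjusted p of at least 0.9999. The number with an unadjusted p under 0.05 was 0 of 31, beside 0.736% of all genes (111 of 15084). DESeq2 and limma on log2(FPKM + 1) also called 0 of these genes, and gave 0 with an unadjusted p under 0.05. The 3 treated values lay clear of the 3 untreated ones in 3 of the 31 genes, beside 3.95% of all genes tested. GAPDH and BNIP3 were on the higher side, beside 1.65% of all genes, and HK1 on the lower, beside 2.3%. Log2 fold changes, treated over untreated, were above 0 in 22 of 31 genes, beside 47.1% of all genes tested, with a median of 0.11 beside -0.01. Without treated 1 the count was 17 of 31 and the median 0.055, and the median was 0.053 without treated 2, 0.051 without untreated 1 and 0.060 without untreated 2. It was higher, at 0.12, without treated 3 and at 0.15 without untreated 3. Of the 31, 27 had a 95% interval of the log2 fold change that lay within a 2-fold change in either direction and 14 one within a 1.5-fold change. ALDOA, LDHB, ANKRD37 and SLC16A3 were the 4 with wider intervals.

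**Figure D1:**
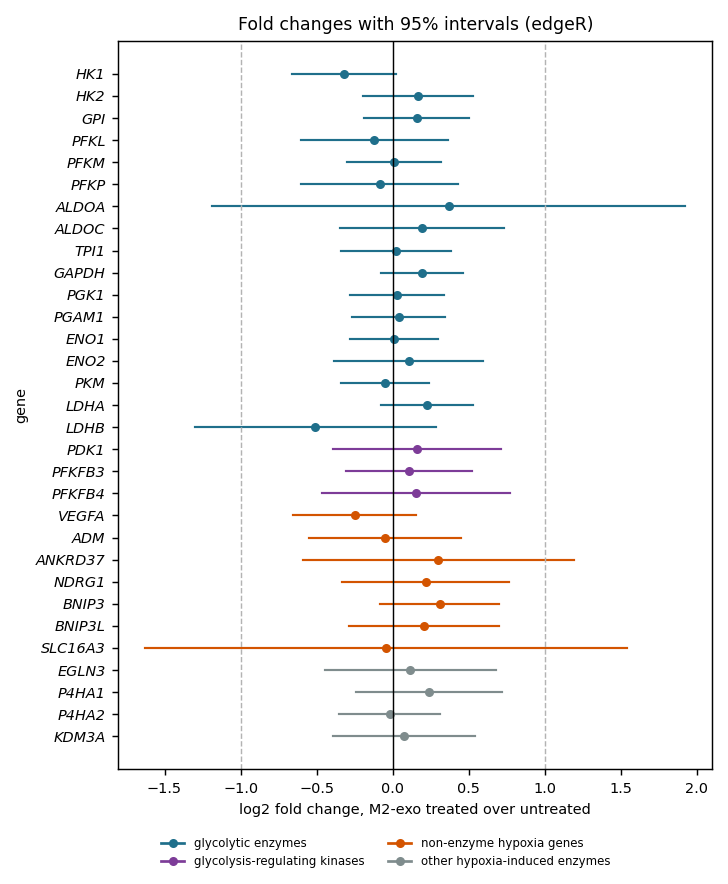
Log2 fold change, M2-exo treated over untreated, of the 31 genes tested, with 95% intervals from edgeR (n = 3 libraries each). Colours mark the 4 roles and dashed lines a 2-fold change either way. No gene passed the adjusted threshold, and ALDOA, LDHB, ANKRD37 and SLC16A3 have intervals that reach beyond 2-fold.

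Levels of different genes were compared per length, as FPKM, the fragments per kilobase of gene scaled to library size, with mean ± SD of 3 libraries. The length is that of a gene's annotated exons, such as 8571 bases for PKM and 2568 for PGAM1, and the length of the transcripts present was not measured. The order between genes depends on it: by mean CPM over both groups PKM, at 1311, was above PGAM1, at 536. The lower part of glycolysis, from triose phosphates to lactate, held the most abundant transcripts. GAPDH stood at 1003 ± 48.6 FPKM in treated and 876 ± 60.6 in untreated cells, where it ranked 16 among protein-coding genes. ENO1 followed at 343 ± 29.8 FPKM in treated and 340.3 ± 24.6 in untreated cells, with TPI1 beside it at 299 ± 33.8 and 293 ± 49.0. Then came PGAM1 at 210.2 ± 3.30 FPKM in treated and 204 ± 25.6 in untreated cells. PKM, at 149 ± 9.49 FPKM in treated and 154 ± 13.7 in untreated cells, and LDHA, at 149.7 ± 15.3 and 128 ± 8.57, were close to each other and above PGK1, at 99.05 ± 9.26 and 96.9 ± 9.68. PKM and LDHA differed by less than the spread between treated libraries, and the ranges of ENO1 and TPI1 overlapped between untreated libraries. Among the upper steps, the hexokinases, GPI and the phosphofructokinases had lower group means than PGK1. PFKP was at 48.0 ± 12.4 FPKM in treated and 50.7 ± 11.7 in untreated cells, and GPI at 31.4 ± 1.84 and 28.1 ± 4.92. HK2 was at 7.63 ± 1.13 FPKM in treated and 6.77 ± 0.287 in untreated cells, and HK1 at 3.76 ± 0.137 and 4.69 ± 0.0352. In the lower part, LDHB and ENO2 also had group means below those of PFKP. Aldolase, another upper step, was left out of this order, because the levels of ALDOA and ALDOC are uncertain for reasons given below. Where aldolase stands among the transcripts of the pathway is therefore not known.

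In group means of FPKM, hypoxia genes and regulating kinases lay below GPI, LDHB and the more abundant enzymes. They overlapped with the less abundant enzymes, such as PFKM, PFKL, HK2 and HK1. In treated 1 alone P4HA1, at 29.8 FPKM, was just above GPI, at 29.4. P4HA1 was the highest of them, at 23.6 ± 6.20 FPKM in treated and 20.0 ± 2.93 in untreated cells, followed by ADM at 14.5 ± 4.81 and 15.0 ± 0.746. VEGFA was at 7.99 ± 1.19 FPKM in treated and 9.48 ± 1.81 in untreated cells, BNIP3L at 8.25 ± 2.31 and 7.14 ± 0.813, and BNIP3 at 5.42 ± 0.392 and 4.36 ± 0.571. The lowest were ANKRD37, at 0.571 ± 0.242 FPKM in treated and 0.462 ± 0.0219 in untreated cells, and SLC16A3, at 0.303 ± 0.166 and 0.309 ± 0.297. CA9, the carbonic anhydrase that is among the most strongly hypoxia-induced genes in many tumours, had a single count, in treated 2, and was not tested. The 17 enzymes together took 1.02%, 1.02% and 0.938% of all counts in treated 1 to 3, and 0.919%, 0.952% and 0.974% in untreated 1 to 3, so that the groups overlapped.

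**Figure D2:**
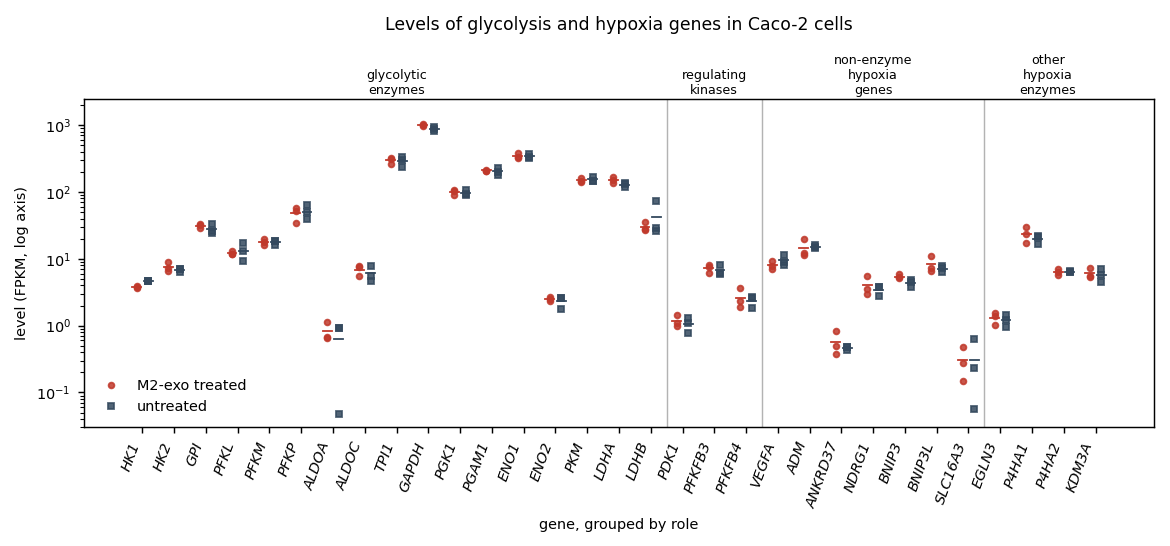
Level in FPKM (log axis) of the 31 genes tested, by role, with 1 point per library (n = 3 each) and a short line for the group mean; CA9, with 1 count, is not drawn. GAPDH is at 1003 FPKM in treated and 876 in untreated cells, and SLC16A3 near 0.3 in both.

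Among the enzymes of the upper, energy-consuming steps, the hexokinases, which trap glucose in the cell as glucose 6-phosphate, lay on different sides. HK1 (ENSG00000156515, chromosome 10 from 69269984 to 69401884, GRCh38), the housekeeping form, had 24.9, 23.0 and 23.7 CPM in treated 1 to 3 and 30.2, 29.6 and 29.7 CPM in untreated 1 to 3. All 3 treated values were lower and close together, with a log2 fold change of -0.32 (SE 0.15; edgeR unadjusted p = 0.064, adjusted p = 0.9999). HK2 (ENSG00000159399, chromosome 2 from 74833981 to 74893359), the form raised by HIF and in many tumours, had 40.9, 53.9 and 44.9 CPM in treated and 42.7, 39.2 and 42.5 CPM in untreated libraries. Treated 2 and 3 were above every untreated value and treated 1 was within the untreated range, and the log2 fold change was 0.17 (SE 0.16), or 0.049 without treated 2. The ratio of HK2 to HK1 in FPKM was 1.71, 2.44 and 1.96 in treated and 1.47, 1.37 and 1.49 in untreated libraries, without overlap. Its difference in log2, 0.48, had an exact permutation p of 0.1, 2-sided, the smallest that 3 against 3 libraries can give, and an adjusted p of 0.9 over the 9 isozyme ratios computed.

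GPI, which turns glucose 6-phosphate into fructose 6-phosphate, had 317, 340.4 and 356 CPM in treated and 262, 283 and 363 CPM in untreated libraries. Its log2 fold change was 0.16 (SE 0.15), with untreated 3 above every treated value. The 3 forms of phosphofructokinase, the committing step of the pathway, had log2 fold changes near 0. PFKM, the muscle form, had 145, 129 and 120.3 CPM in treated and 121, 134 and 137 CPM in untreated libraries (log2 0.01, SE 0.14). PFKL, the liver form, had 107, 107 and 116 CPM in treated and 83.2, 118 and 157 CPM in untreated libraries (log2 -0.12, SE 0.21). PFKP, the platelet form, had 165, 278 and 257 CPM in treated and 244, 192 and 307 CPM in untreated libraries (log2 -0.08, SE 0.23). The 3 forms were not high in the same treated libraries: PFKM was highest in treated 1, where PFKP was lowest.

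Aldolase splits fructose 1,6-bisphosphate, and its main form in most tissues, ALDOA, was listed near the bottom here. ALDOA had 46, 77 and 48 counts in treated and 3, 64 and 65 counts in untreated libraries, or 2.59, 4.42 and 2.68 CPM against 0.191, 3.58 and 3.66 CPM. Its log2 fold change of 0.37 (SE 0.69) came down to -0.16 when untreated 1, the library with 3 counts, was left out. In the gene table ALDOA (ENSG00000149925, chromosome 16 from 30064164 to 30070457, plus strand) is overlapped on the same strand by AC093512.2 (ENSG00000285043, 30053090 to 30070420), a protein-coding entry that had 13, 8 and 12 counts in treated and 3, 10 and 7 in untreated libraries. The sources used here do not say how reads shared by both entries were counted, so the level of ALDOA is uncertain. ALDOC, the form best known from brain, had 23.0, 16.2 and 22.0 CPM in treated and 13.9, 16.4 and 23.2 CPM in untreated libraries (log2 0.19, SE 0.24). ALDOC lies wholly within another entry on its strand, AC005726.1, so its level is uncertain for the same reason.

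Among the enzymes of the lower, energy-yielding steps, GAPDH was the one whose groups did not overlap. GAPDH (ENSG00000111640, chromosome 12 from 6533927 to 6538374), which oxidises glyceraldehyde 3-phosphate, had 3025, 3139 and 2872 CPM in treated and 2487, 2816 and 2608 CPM in untreated libraries. Each treated value was above each untreated one, with a log2 fold change of 0.19 (SE 0.12; 95% interval -0.08 to 0.46; edgeR unadjusted p = 0.145, adjusted p = 0.9999). The table names 62 GAPDH pseudogenes, near copies with which reads could be shared, and they held 0.658% as many counts as the gene. TPI1, which interconverts the triose phosphates, had 879, 849 and 709 CPM in treated and 657, 819.7 and 920.0 CPM in untreated libraries (log2 0.02, SE 0.16). PGK1, the first ATP-forming step, had 590.4, 567 and 493 CPM in treated and 604, 509.6 and 505 CPM in untreated libraries (log2 0.03, SE 0.14). PGK1 overlaps ATP7A on the same strand in the table, and how shared reads were counted is not given.

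PGAM1, phosphoglycerate mutase, had 542, 534 and 555 CPM in treated and 524, 463 and 599.5 CPM in untreated libraries (log2 0.04, SE 0.14). ENO1, the general enolase, had 1759, 1996 and 1719.8 CPM in treated and 1705, 1775 and 1959.7 CPM in untreated libraries (log2 0.01, SE 0.13). PKM, pyruvate kinase, had 1221, 1371 and 1276 CPM in treated and 1256, 1272 and 1472 CPM in untreated libraries (log2 -0.05, SE 0.13). In these 3 genes the treated and untreated values overlapped, and their 95% intervals, from -0.26 to 0.35, -0.28 to 0.30 and -0.34 to 0.24, all lay within a 1.5-fold change. ENO2, the neuronal enolase, also a HIF target, was far lower, with 9.96, 11.5 and 10.8 CPM in treated and 11.2, 7.72 and 11.1 CPM in untreated libraries (log2 0.11, SE 0.22). The ratio of ENO1 to ENO2 in FPKM was 143, 140.3 and 129 in treated and 123, 187 and 143 in untreated libraries. ENO2 overlaps LRRC23 on the same strand, and how shared reads were counted is not given.

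The lactate dehydrogenase subunits are LDHA, the HIF-induced form that favours lactate, and LDHB, the form that favours pyruvate. LDHA (ENSG00000134333, chromosome 11 from 18394388 to 18408425), whose promoter window is printed above with 2 CACGTG strings, had 1036, 929.9 and 844 CPM in treated and 846, 736 and 824 CPM in untreated libraries. Treated 1 and 2 were above all untreated values and treated 3 was just under untreated 1, with a log2 fold change of 0.22 (SE 0.13; edgeR unadjusted p = 0.127, adjusted p = 0.9999). LDHB (ENSG00000111716, chromosome 12 from 21635342 to 21757857) had 106, 80.8 and 84.2 CPM in treated and 219, 87.4 and 79.0 CPM in untreated libraries. Untreated 1 alone was high, and the log2 fold change of -0.51 (SE 0.35) was 0.12 without it. LDHB is overlapped on the same strand by AC010197.2 (ENSG00000285854, 21536203 to 21657798), a protein-coding entry with 4, 1 and 1 counts in treated and 3, 2 and 1 in untreated libraries. The level of LDHB, and ratios that use it, are therefore uncertain for the reason given for ALDOA. The ratio of LDHA to LDHB in FPKM was 4.71, 5.53 and 4.81 in treated and 1.85, 4.04 and 5.01 in untreated libraries. Its difference in log2, 0.58, had an exact permutation p of 0.3, 2-sided, and an adjusted p of 0.9 over the 9 ratios. Without untreated 1 the difference was 0.15, and without untreated 3 it was 0.87. The other 7 ratios, of PFKL and PFKM to PFKP, ALDOA to ALDOC, ENO1 to ENO2, BNIP3 to BNIP3L, P4HA1 to P4HA2 and PFKFB3 to PFKFB4, had adjusted p of 0.9 or 1 by the same exact test.

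The regulating kinases set how fast carbon enters and leaves glycolysis. PDK1, which blocks pyruvate dehydrogenase and so keeps pyruvate out of the mitochondria, had 21.9, 14.7 and 16.4 CPM in treated and 19.5, 16.2 and 11.7 CPM in untreated libraries (log2 0.16, SE 0.25). PFKFB3 and PFKFB4 make fructose 2,6-bisphosphate, the main activator of phosphofructokinase. PFKFB3 had 38.2, 45.9 and 49.7 CPM in treated and 36.4, 37.8 and 49.8 CPM in untreated libraries (log2 0.11, SE 0.18). PFKFB4 had 22.5, 11.8 and 14.4 CPM in treated and 11.2, 16.3 and 16.2 CPM in untreated libraries (log2 0.15, SE 0.27). PDK1 and PFKFB4 were highest in treated 1, and the median of the 3 kinases, 0.15 in log2, was -0.0037 without that library.

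Among the hypoxia genes that are no enzymes, BNIP3 was the one whose treated values all lay above the untreated. BNIP3 (ENSG00000176171, chromosome 10 from 131966455 to 131982013, minus strand), a mitochondrial receptor for mitophagy with 6 motif matches in its window, had 31.5, 28.5 and 27.3 CPM in treated and 26.2, 20.0 and 24.2 CPM in untreated libraries. Its log2 fold change was 0.31 (SE 0.17; 95% interval -0.08 to 0.70; edgeR unadjusted p = 0.109, adjusted p = 0.9999). The table names 39 BNIP3 pseudogenes, which held 4.19% as many counts as BNIP3 itself. BNIP3L, its relative that is also a mitophagy receptor, had 47.3, 28.0 and 32.1 CPM in treated and 34.7, 31.0 and 27.5 CPM in untreated libraries (log2 0.21, SE 0.22). Treated 1 was highest and treated 2 and 3 lay within the untreated range, and without treated 1 the log2 fold change of BNIP3L was -0.03.

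NDRG1, a stress-response gene often used as a marker of lasting hypoxia, followed BNIP3L in this. NDRG1 (ENSG00000104419) had 54.0, 29.4 and 35.6 CPM in treated and 27.6, 37.4 and 37.3 CPM in untreated libraries, a log2 fold change of 0.22 (SE 0.24) that was -0.05 without treated 1. ANKRD37, a small ankyrin repeat protein and direct HIF target whose window is printed above, had 39, 17 and 23 counts in treated and 18, 22 and 22 counts in untreated libraries. In CPM these were 2.19, 0.976 and 1.28 in treated and 1.14, 1.23 and 1.24 in untreated libraries, a log2 fold change of 0.30 (SE 0.39) that was -0.07 without treated 1. For NDRG1 and ANKRD37, as for BNIP3L, treated 1 alone was high and the other treated libraries lay beside the untreated ones. ANKRD37 overlaps UFSP2 on the opposite strand, and the sources used here do not say whether counting used the strand.

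The secreted hypoxia products and the lactate exporter SLC16A3 did not share this pattern. VEGFA, the main growth factor for blood vessels, had 101, 112 and 135 CPM in treated and 130.1, 116 and 168 CPM in untreated libraries, a log2 fold change of -0.25 (SE 0.18). Here treated 1 was the lowest of all 6 libraries, and the log2 fold change was -0.14 without it and -0.069 without untreated 3. ADM, the vessel-dilating peptide adrenomedullin, had 33.5, 54.7 and 31.2 CPM in treated and 39.6, 43.1 and 40.8 CPM in untreated libraries (log2 -0.05, SE 0.22). Treated 2 was the highest and treated 3 the lowest of the 6. SLC16A3, or MCT4, the exporter of lactate that goes with glycolytic cells, had 24, 44 and 78 counts in treated and 8, 38 and 103 counts in untreated libraries. Its log2 fold change was -0.04 (SE 0.70), with untreated libraries at both ends of the range. SLC16A3 overlaps the much more abundant CSNK1D on the opposite strand, and AC132872.3 and AC132872.4 on its own strand, so its few counts are uncertain.

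The hypoxia-induced enzymes outside glycolysis had log2 fold changes from -0.02 to 0.24. P4HA1, a subunit of collagen prolyl 4-hydroxylase, had 93.1, 73.4 and 54.4 CPM in treated and 66.8, 68.4 and 52.0 CPM in untreated libraries (log2 0.24, SE 0.21; 0.055 without treated 1). Its relative P4HA2 had 60.6, 54.8 and 48.4 CPM in treated and 53.9, 56.7 and 55.5 CPM in untreated libraries (log2 -0.02, SE 0.15). In both genes treated 1 was the highest and treated 3 the lowest of the treated libraries. KDM3A, a histone demethylase, had 100.3, 74.9 and 71.3 CPM in treated and 96.6, 76.4 and 60.9 CPM in untreated libraries (log2 0.08, SE 0.21). EGLN3, a prolyl hydroxylase that marks HIF for degradation and is itself a HIF target, had 7.49, 11.5 and 10.4 CPM in treated and 9.21, 7.05 and 10.9 CPM in untreated libraries (log2 0.12, SE 0.25). EGLN3 overlaps SPTSSA on the same strand in the table, an entry with 946, 892 and 734 counts in treated and 960, 862 and 708 in untreated libraries. How shared reads were counted is not given, so the level of EGLN3 is uncertain too.

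**Figure D3:**
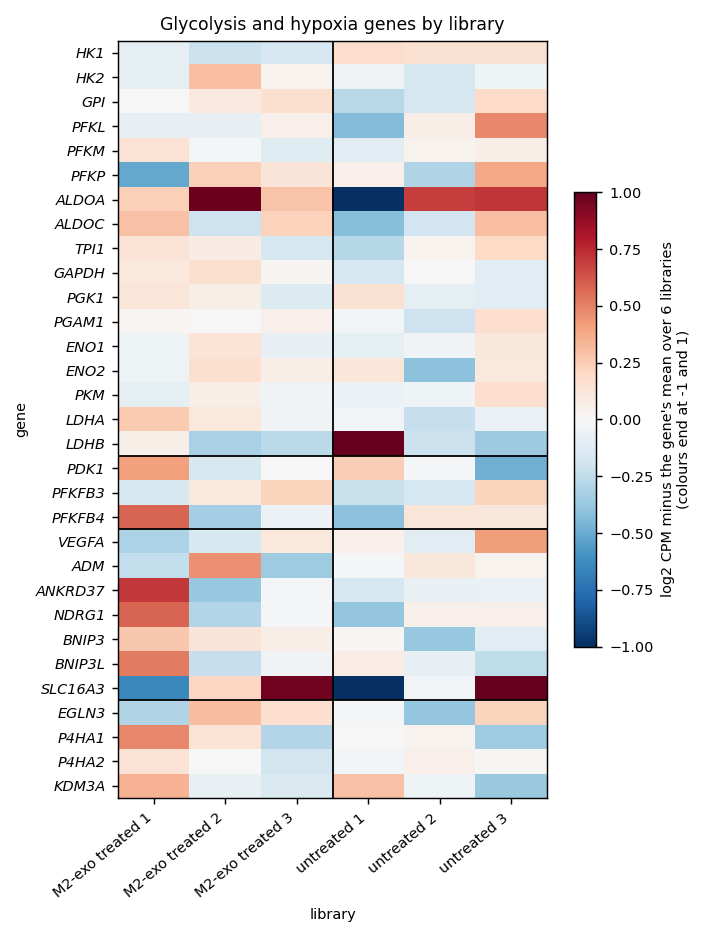
Log2 CPM of each of the 31 genes in each library minus the gene's mean over the 6 libraries, with colours that end at -1 and 1 and black lines between roles and between groups. PFKFB4, ANKRD37, NDRG1 and BNIP3L are high in treated 1 alone among the treated libraries, and LDHB is high in untreated 1.

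Set side by side, the glycolytic enzymes had a median log2 fold change of 0.03, with 12 of 17 above 0, and the hypoxia genes that are no enzymes one of 0.21, with 4 of 7 above 0. The median of all genes tested was -0.01. The difference of the medians, enzymes minus non-enzyme hypoxia genes, was -0.18. A related value was taken per library from log2 CPM minus the gene's mean, as the median of the enzymes minus that of the non-enzyme genes. Its SD between replicates was 0.19. This is the spread of single libraries and not the error of the -0.18, which was not tested. Taking means in place of medians gave a difference of -0.07. The direction of the difference turned when treated 1 was left out: the non-enzyme hypoxia genes then had a median of -0.03, the enzymes 0.06, and the difference was 0.09. The median of the enzymes was 0.15 without untreated 3, and between 0.01 and 0.12 without any other single library. The other hypoxia-induced enzymes had a median of 0.10 with all libraries and -0.0084 without treated 1.

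Of the 4 roles, the non-enzyme hypoxia genes varied most between the treated libraries. Of the 11 hypoxia genes tested, enzymes and non-enzymes together, 7 had their highest value of all 6 libraries in treated 1, and of the 17 glycolytic enzymes 2 did, beside 14.7% of all genes tested. The SD of log2 CPM had a median of 0.44 between treated and 0.20 between untreated libraries for the non-enzyme hypoxia genes. It was 0.14 and 0.19 for the glycolytic enzymes, and 0.19 and 0.30 over all genes tested. Untreated 1, the library that stood apart, held the lowest of the 6 values for 7 of the 17 enzymes, beside 29.4% of all genes tested. Without untreated 1 the medians were 0.04 for the enzymes and 0.09 for the non-enzyme hypoxia genes. The part that depth, mitochondrial share or other properties of treated 1 and untreated 1 have in these values was not tested.

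**Figure D4:**
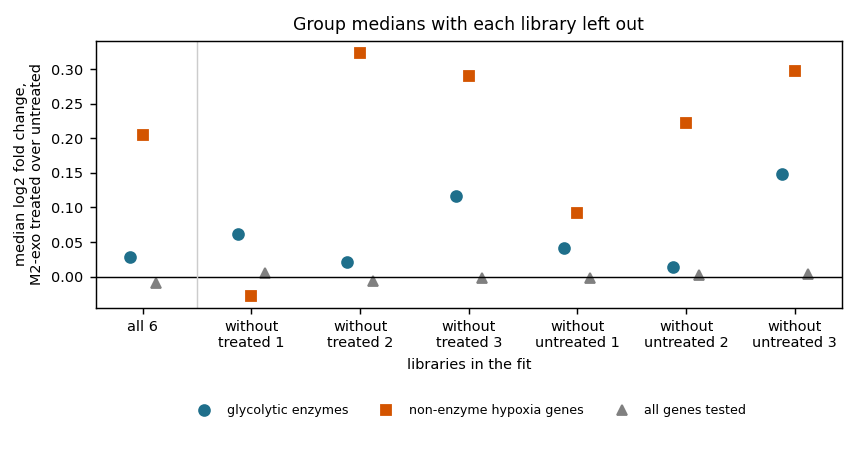
Median log2 fold change of the 17 glycolytic enzymes, the 7 non-enzyme hypoxia genes and all genes tested, with all 6 libraries and with each library left out in turn. The non-enzyme hypoxia genes are at 0.21 with all libraries and at -0.03 without treated 1, while the median of all genes stays within 0.01 of 0.

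Genes around these pathways, taken from further lists of known genes, gave 0 calls in either direction by edgeR in every list. The oxygen-sensing list holds the HIF subunits, the proteins that degrade or restrain them and their coactivators, and 14 of its 15 genes were tested. Of these 4 were above 0, with a median of -0.04, from ELOC, a subunit of the VHL ubiquitin ligase, at -0.17 to CREBBP, a HIF coactivator, at 0.05 among genes with a mean of at least 5 CPM. HIF1A, named after its values were seen, had 207, 217 and 179 CPM in treated and 276, 203 and 160 CPM in untreated libraries (log2 -0.08), and EPAS1, which codes for HIF-2α, 142, 146 and 146 CPM in treated and 147, 148 and 152 CPM in untreated libraries (log2 -0.04). HIF is mainly controlled through protein stability, which these data do not measure. Of 24 further HIF targets, 23 were tested and 13 were above 0, with a median of 0.03. This median turned to -0.063 without treated 3, -0.071 without untreated 1 and -0.0021 without treated 2. Targets with a mean of at least 5 CPM ran from TMEM45A at -0.34 to DDIT4, an inhibitor of mTORC1, at 0.28. Over all 23 the range was from CA12 at -0.63 to LOX at 1.03. Groups did not overlap in 4 of the 23, with LOX higher, beside 1.65% of all genes, and EFNA1, CITED2 and TMEM45A lower, at log2 -0.24, -0.22 and -0.34, beside 2.3% of all genes. One of them, LOX, a collagen cross-linking enzyme named after its values were seen, had an unadjusted p under 0.05, beside 0.736% of all genes, with a log2 fold change of 1.03 at 3.26, 2.12 and 2.56 CPM in treated and 1.02, 1.85 and 1.01 CPM in untreated libraries (edgeR unadjusted p = 0.019, adjusted p = 0.9999). Treated 1 held the highest value in 4 of the 23 further targets, beside 14.7% of all genes tested. The main glucose transporter of many tumours, SLC2A1, named after its values were seen, had 437, 699 and 719.99 CPM in treated and 445, 439 and 763 CPM in untreated libraries (log2 0.17).

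The routes that branch from glycolysis also held no gene that passed. Of 22 genes for pyruvate entry into mitochondria, lactate transport and the pentose phosphate pathway, 21 were tested and 9 were above 0, with a median of -0.02. Those with a mean of at least 5 CPM ran from PC, pyruvate carboxylase, at -0.29 to MPC1, a pyruvate carrier, at 0.11. PDK3, below that level, was at 0.13. Of 9 genes listed for gluconeogenesis and its regulation, 5 were tested and 1 was above 0, with a median of -0.24, from PFKFB2, which, like PFKFB3, makes fructose 2,6-bisphosphate, at -0.12 to PCK2, which makes phosphoenolpyruvate, at 0.21 among genes with a mean of at least 5 CPM. Of 10 glycolytic isozymes known from muscle, liver, testis or blood cells, 8 were too low to test, among them PGK2, PGAM2 and LDHC at 0 counts in all 6 libraries. The remaining ENO3 and BPGM had log2 fold changes of -0.27 and -0.13.

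In the exosome libraries a pair of miRNAs with known links to these genes was looked up. They are miR-210-3p, the miRNA most regularly induced by HIF, and miR-143-3p, which is known to target HK2. Their RefSeq sequences are shown with the seed, bases 2 to 8, in capitals.
hsa-miR-210-3p: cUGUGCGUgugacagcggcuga
hsa-miR-143-3p: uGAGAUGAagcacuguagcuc
The seeds differ. miR-210-3p had 0 of 9929 counts in M2-exo, which allows a share of up to 0.0302% by the limit of 3 counts and 0.0371% by the exact Clopper-Pearson bound, and 1 of 13584 in M0-exo. miR-143-3p had 324 counts in M2-exo, or 3.26% (exact Clopper-Pearson 95% interval 2.92% to 3.63%), and 306 in M0-exo, or 2.25% (2.01% to 2.52%), a ratio of 1.45 (1.24 to 1.70). With 1 library each there is no replicate check, and intervals and the limit for 0 counts cover counting error only. In the recipient cells HK2, at log2 0.17 (SE 0.16), did not pass the test. The HK2 value compares M2-exo with PBS, whereas the miRNA ratio compares M2-exo with M0-exo, and a link between them was not tested. Of 10 genes known as miR-210 targets, 10 were tested in Caco-2 cells and 3 were above 0, with a median of -0.03. Those with a mean of at least 5 CPM ran from BDNF at -0.40 to COX10 at 0.05, and EFNA3, below that level, was at 0.30.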

How the data were processed

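The gene tables deposited by the authors hold whole-number counts, and FPKM values that are each count divided by gene length and a constant per column. The submitters' processing notes name CASAVA, HISAT2, featureCounts and GRCh38 for these tables and Bowtie for the exosome table, without versions; of that exosome file only the deposited miRNA counts were used. A total of 6 columns of the gene tables, with headers that name M0-exo, match no sample and were not used. The comparison with PBS cannot tell an effect of M2-exo apart from one of exosomes in general. The main test was edgeR 4.0.16 under R 4.3.3 (filterByExpr, TMM, quasi-likelihood F test, 2-sided, Benjamini-Hochberg adjustment), checked on simulated data, and CPM are TMM-scaled. Isozyme ratios were tested with exact permutation (scipy 1.17.1). Alternatives were DESeq2 1.42.0, limma 3.58.1 on log2(FPKM + 1), no filter, a filter at a mean CPM of 1, RLE factors or total counts, a replicate block and each library left out. The members and all gene lists were chosen with earlier results of these data known. Every member was named, and from each further list the largest and smallest log2 fold change among genes averaging 5 CPM or more.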

Additional observations from a re-analysis of the deposited data

How the results depend on the processing

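No glycolysis or hypoxia gene was called under any alternative, and unadjusted p under 0.05 by edgeR were given for LDHB with no filter on low counts, for BNIP3 without untreated 1 and for GPI and LDHB without untreated 3. Over all genes, 0 were called with the filter, 6 with no filter and 0 to 1 with each library left out, the 1 without treated 2. The median of the enzymes was 0.014 to 0.15, that of the non-enzyme hypoxia genes -0.027 to 0.32 and their difference -0.30 to 0.090 with each library left out. The remaining alternatives kept the signs of these 3 values. Of the 31 genes tested, 21 changed sign when some library was left out, 13 of them without treated 1. Ranges were -0.31 to 0.14 for PFKL, -0.049 to 0.080 for PFKM, -0.23 to 0.13 for PFKP, -0.16 to 0.75 for ALDOA, -0.092 to 0.15 for TPI1, -0.0052 to 0.12 for PGK1, -0.028 to 0.16 for PGAM1, -0.060 to 0.083 for ENO1, -0.031 to 0.20 for ENO2, -0.095 to 0.043 for PKM and -0.74 to 0.12 for LDHB. They were -0.0037 to 0.34 for PDK1, -0.14 to 0.34 for PFKFB4, -0.35 to 0.12 for ADM, -0.074 to 0.53 for ANKRD37, -0.052 to 0.39 for NDRG1, -0.027 to 0.35 for BNIP3L, -0.53 to 1.04 for SLC16A3, -0.015 to 0.30 for EGLN3, -0.081 to 0.074 for P4HA2 and -0.072 to 0.26 for KDM3A. Without a change of sign, GPI ranged over 0.072 to 0.32, ALDOC over 0.051 to 0.44, PFKFB3 over 0.035 to 0.28 and P4HA1 over 0.055 to 0.43, and the P4HA1 to P4HA2 ratio over 0.11 to 0.36. SLC16A3 was also 0.0089 by limma on log2(FPKM + 1). Of the isozyme ratios, the log2 difference ranged over -0.22 to 0.21 for PFKL to PFKP, -0.20 to 0.29 for PFKM to PFKP, -0.26 to 1.74 for ALDOA to ALDOC, -0.25 to 0.048 for ENO1 to ENO2, -0.0041 to 0.30 for BNIP3 to BNIP3L and -0.23 to 0.36 for PFKFB3 to PFKFB4. The cause of these changes was not tested. Leaving out ALDOA, an alternative added after seeing the data, gave an enzyme median of 0.03.

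The labels give treated and untreated libraries the same numbers but name no batch or pairing, so whether libraries of the same number belong together is not known. The correlations of their deviations from the group means were 0.28, -0.06 and 0.48, and treated 2 correlated best with untreated 1 (0.07). Over the 31 genes alone they were 0.45, 0.17 and 0.64, and treated 2 correlated best with untreated 3 (0.32). With a replicate block 0 genes were called, the enzyme median was 0.03, the non-enzyme hypoxia median 0.18, their difference -0.15 and SLC16A3 0.24. With the block 211 of all genes had an edgeR unadjusted p under 0.05, against 111 in the main fit. With 3 libraries a group, ALDOA, ANKRD37 and SLC16A3 rest on few counts each.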
